A study of Canis lupus familiaris with 13 samples.

Results

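The high mobility group (HMG) chromatin proteins were followed in primary soft tissue sarcomas of dogs. HMG proteins are small, abundant nuclear proteins that bend DNA or loosen its packing. HMGA proteins bind the minor groove of AT-rich DNA through short AT-hooks, HMGB proteins bend DNA with HMG boxes, and HMGN proteins bind the nucleosome itself and compete with linker histone H1. Several of them are abundant in embryonic or dividing cells, low in most resting adult tissue and high again in many human tumours. The family was listed as 9 genes: HMGA1, HMGA2, HMGB1, HMGB2, HMGB3, HMGN1, HMGN2, HMGN3 and HMGN5. Members were all probe sets that the platform annotation assigns to exactly 1 of these symbols. This gave 11 of the 42924 probe sets tested and covered 6 of the 9 genes. HMGN2 appeared only on 6 probe sets that also list other loci, and HMGA2 and HMGN5 were not analysed here because no probe set was named for them.

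Total RNA of untreated primary tumour biopsies was measured on an Affymetrix array of canine transcripts, where each transcript is read by a group of short probes called a probe set. The metastatic group held 5 tumours (MET1 to MET5), and the non-metastatic group held 8 (NM1 to NM8), defined by at least 1 year without metastasis. The labels give no breed, histological subtype or tumour site and do not say whether each tumour came from a separate dog, so errors and p-values describe the spread between these samples. Values are the deposited log2 intensities, on which a difference of 1 is a doubling. Every difference is metastatic minus non-metastatic with its standard error (SE) from limma fitted to all probe sets, and a probe set counts as called when its Benjamini-Hochberg adjusted p was under 0.05. Biopsies are mixtures, so a change in the number of cells that carry a transcript and a change in RNA per cell cannot be told apart.

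HMGA1 and HMGB3 came to attention because they were among the largest rises of this same comparison. The metastatic against non-metastatic values of all members are therefore given as a description, without p-values. Calls of member probe sets are likewise only a description. Fits on part of the tumours reuse the samples from which the family was picked. A call kept or lost there, or groups that stay apart, is therefore no separate test of the members. The absolute level of a probe set depends on its probes, so levels are compared between tumours and not between genes.

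Array medians lay between 6.71 and 6.94. The labels name no batch, and the labelling batches used here were inferred from cut-offs on control RNAs spiked in before labelling. All 5 metastatic samples and NM5 to NM8 formed batch A, with a mean of the 3′ spike-in sets of 8.12 to 9.02. NM1, NM3 and NM4 formed batch B, where that mean was only 4.48 to 4.95. NM2 alone formed batch C, where spike-in signal fell steeply from 3′ to 5′. Only batch A held both groups. The excess of 3′ over 5′ signal for ACTB grows as RNA degrades. Here it also differed by labelling batch, so RNA quality and labelling cannot be told apart. The ACTB excess was 1.40 to 2.87 in metastatic and 0.39 to 3.14 in non-metastatic samples, with NM2 highest. Batch B gave the lowest of these values, 0.39 to 0.88, and NM5 to NM8 gave 1.23 to 2.24. Array medians were also lowest in batch B, at 6.71 to 6.74. The connective tissue transcripts VIM and COL1A2 averaged 13.32 and 13.54 in metastatic and 13.60 and 13.57 in non-metastatic tumours. Other mesenchymal markers differed more. Of the 10 on the list 2 were called lower and none higher, where 3.34% of all probe sets were called lower and 1.56% higher. These were DCN (-1.28, limma adjusted p = 0.00429), with every metastatic tumour below every non-metastatic one, and THY1 (-1.41, limma adjusted p = 0.0425). LUM differed by 1.82 and was not called (limma adjusted p = 0.304). The list's mean centred level ran from -0.48 to 0.43 in metastatic and from -0.42 to 0.51 in non-metastatic tumours. The leukocyte list (12 genes) ran from -0.61 to 0.51 against -0.54 to 0.38, and the endothelial list (8 genes) from -0.53 to 0.45 against -0.89 to 1.21. No gene of either list was called by limma, with or without a robust trend, and 1 leukocyte gene and 0 endothelial genes had an unadjusted p under 0.05. The epithelial list (5 genes, 1 lower) ran from -0.84 to 0.15 against -0.31 to 1.09. The skeletal muscle list (7 genes, none called by limma, 2 at an unadjusted p under 0.05) reached 2.08 in MET5 and lay between -0.26 and 0.31 in the other metastatic tumours, against -0.61 to 0.32 in non-metastatic ones.

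The HMG genes differed between the outcome groups by unequal amounts. HMGA1, HMGB3 and HMGN3 were about 4 to 6 times as high in metastatic tumours as in non-metastatic ones at their brightest probe sets, with ratios of 6.01, 4.25 and 5.51. Of the 8 non-metastatic values, 5 for HMGA1, 7 for HMGB3 and 3 for HMGN3 lay between 2.63 and 7.16, so these 3 ratios are not exact. These limits are the lowest and highest spike-in values on the batch B arrays (median 4.45), where the spike-in target was taken as absent. The span is called the range without target here. It also holds every array median, so a value inside it can still be signal. HMGB2 was 2.02 times as high and HMGB1 1.42 times, while HMGN1 had a ratio of 1.10. Of the 11 member probe sets, 6 were called, all of them higher: those of HMGA1 and HMGB2 and both of HMGB3 and of HMGN3. Over all probe sets 1.56% were called higher, 3.34% lower and 4.90% in either direction. Since the family was picked from this comparison, nothing is read from its count. Without the 3 tumours of batch B, 1 of the 6 calls remained, that of the dimmer HMGB3 set. In the same fit the calls over all 42924 probe sets went from 2104 to 207. The median difference was 0.86 over the 11 member probe sets and 0.05 over all probe sets. All 11 differences were above 0, as were 55.1% of all probe sets.

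**Figure D1:**
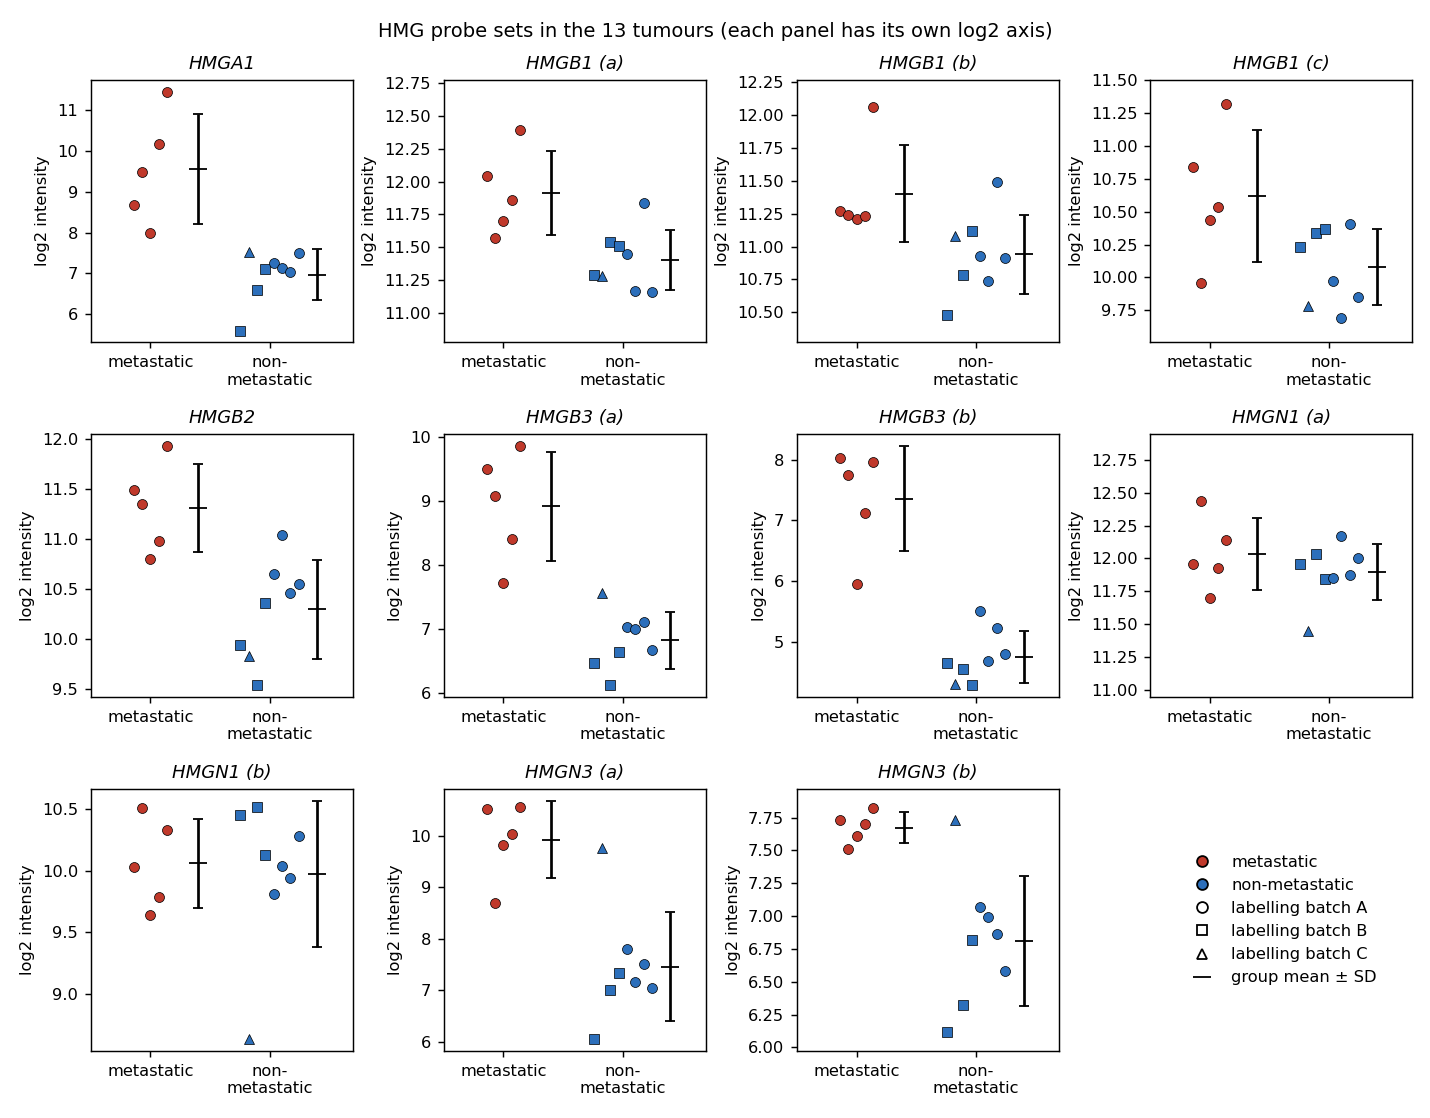
Log2 intensity of each of the 11 HMG probe sets, 1 panel each with its own axis, in metastatic (left) and non-metastatic tumours (right). Points are tumours, their shape gives the labelling batch, and bars are the group mean ± SD. Where a gene has several probe sets, (a) is the brightest. The groups are apart for HMGA1 and both HMGB3 probe sets, NM2 (triangle) lies with the metastatic tumours for HMGN3, and the groups overlap for HMGB1, HMGB2 and HMGN1.

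HMGA1 is an AT-hook protein of the family, an architectural factor that helps assemble transcription complexes on promoters and enhancers. Its only probe set read 8.67, 9.48, 7.99, 10.18 and 11.46 in MET1 to MET5, against a lowest value of 5.60, a median of 7.12 and a highest value of 7.52 in non-metastatic tumours. Every metastatic tumour lay above every non-metastatic one, with a gap of 0.47 between MET3 and NM2. HMGA1 averaged 9.56 ± 1.35 in metastatic tumours (SD, n = 5) and 6.97 ± 0.62 in non-metastatic tumours (SD, n = 8), a difference of 2.59 ± 0.49 (SE). Metastatic tumours were also the more scattered, over a range of 3.47 against 1.92. Since 5 of the 8 non-metastatic values and no metastatic value lay inside the range without target, this comparison of spread is not exact. MET5 lay 3.50 above the gene's mean over the 13 tumours, while MET3 was at that mean (0.03).

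Within labelling batch A HMGA1 differed by 2.33 ± 0.60 (SE). Its batch A values were 7.99 to 11.46 in metastatic and 7.04 to 7.49 in non-metastatic tumours, so the groups were still apart. The probe set was not among the calls there, nor in 8 of 9 fits of batch A that left out 1 more tumour. Within batch A 2.78% of all probe sets were called, 0.578% higher and 2.20% lower. Over all tumours the difference ran from 2.11 to 2.98 when 1 tumour was left out.

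The HMGB proteins carry HMG boxes and an acidic tail. HMGB1 is the ubiquitous member, which also acts as an alarm signal once outside the cell. HMGB2 is abundant in dividing cells, and HMGB3 is known in mice for its expression in the embryo and in blood progenitors. Over all 13 tumours the size of the difference went in the order HMGB3, HMGB2, HMGB1. Within batch A HMGB2 differed by 0.63 and the 3 HMGB1 sets by 0.51, 0.38 and 0.64, so HMGB2 and HMGB1 were not in a clear order there.

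HMGB3 was read by 2 probe sets. The brighter gave 9.50, 9.07, 7.72, 8.40 and 9.85 in MET1 to MET5, against a lowest value of 6.12, a median of 6.84 and a highest of 7.56 in non-metastatic tumours. The other gave 8.02, 7.74, 5.96, 7.12 and 7.96, against 4.30, 4.68 and 5.52 for the lowest, median and highest non-metastatic tumour. On both probe sets every metastatic tumour lay above every non-metastatic one and MET3 was the lowest metastatic tumour. The means were 8.91 ± 0.86 in metastatic and 6.82 ± 0.44 in non-metastatic tumours on the brighter set (SD, n = 5 and 8), a difference of 2.09 ± 0.33 (SE). On the other set they were 7.36 ± 0.86 and 4.76 ± 0.43, a difference of 2.60 ± 0.32 (SE). Inside the range without target lay 7 of the 8 non-metastatic values of the brighter set, and 8 of 8 non-metastatic and 2 of 5 metastatic values of the dimmer set, so neither difference is exact. Within batch A the differences were 1.96 ± 0.39 and 2.30 ± 0.41 (SE), both probe sets were among the calls there, and the groups stayed apart on both. The brighter set kept its call within batch A in 2 of 9 fits without 1 tumour and the dimmer in 4 of 9. Batch A is part of the tumours from which the family was picked, so nothing is read from these calls or from the separation.

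HMGB2 had 1 probe set, which read 11.49, 11.35, 10.80, 10.98 and 11.93 in MET1 to MET5, against a lowest value of 9.54, a median of 10.41 and a highest of 11.04 in non-metastatic tumours. The groups overlapped in NM6, which was above MET3 and MET4. HMGB2 averaged 11.31 ± 0.44 in metastatic (SD, n = 5) and 10.30 ± 0.49 in non-metastatic tumours (SD, n = 8), a difference of 1.01 ± 0.25 (SE). Non-metastatic tumours themselves differed by labelling batch, with an average of 10.68 ± 0.26 in batch A (SD, n = 4) and 9.95 ± 0.41 in batch B (SD, n = 3). Within batch A the difference between the outcome groups was 0.63 ± 0.23 (SE) and was not among the calls, and over all tumours the call remained in 6 of the 13 fits without 1 tumour.

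HMGB1 was read by 3 probe sets, all with small positive differences and overlapping groups. The brightest read 12.04, 11.57, 11.70, 11.86 and 12.39 in MET1 to MET5, against 11.16, 11.37 and 11.84 for the lowest, median and highest non-metastatic tumour. It averaged 11.91 ± 0.32 in metastatic and 11.40 ± 0.23 in non-metastatic tumours (SD, n = 5 and 8), a difference of 0.51 ± 0.16 (SE). The other probe sets differed by 0.46 ± 0.18 and 0.54 ± 0.21 (SE). None of the 3 was among the calls over all tumours or within batch A, where they differed by 0.51, 0.38 and 0.64. The brightest set and 1 other were called after quantile normalization, and also with array weights. The brightest was also called without NM7, so the HMGB1 calls changed with the setting and nothing is read from them. HMGB4, an HMG-box gene outside the 9 that is known from the mouse testis, averaged 6.96 ± 0.13 in metastatic and 6.77 ± 0.36 in non-metastatic tumours and was not called.

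The HMGN proteins sit on nucleosomes and counter chromatin compaction. HMGN1 is expressed widely, and HMGN3 is known in mice for high expression in endocrine cells and parts of the nervous system and eye. HMGN3 and HMGN1, the members that could be read, gave unlike differences.

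The brighter HMGN3 probe set read 10.51, 8.70, 9.81, 10.04 and 10.56 in MET1 to MET5, against a lowest value of 6.05, a median of 7.26 and a highest of 9.75 in non-metastatic tumours. The highest non-metastatic value was that of NM2, the single sample of batch C, and it lay above MET2. The next highest non-metastatic tumour read 7.81, so without NM2 the groups were apart. HMGN3 averaged 9.92 ± 0.75 in metastatic (SD, n = 5) and 7.46 ± 1.06 in non-metastatic tumours (SD, n = 8), a difference of 2.46 ± 0.49 (SE), which was 2.79 without NM2.

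The other HMGN3 probe set spanned a narrower range. It read 7.73, 7.51, 7.61, 7.70 and 7.82 in MET1 to MET5, against 6.12, 6.84 and 7.73 for the lowest, median and highest non-metastatic tumour, and NM2 was again the highest. The difference was 0.86 ± 0.22 (SE) over all tumours and 0.99 without NM2. Of its 8 non-metastatic values 7 lay inside the range without target and the metastatic values lay above it, so this difference is not exact either. Its call remained in 3 of the 13 fits without 1 tumour. Within batch A the differences were 2.54 ± 0.37 and 0.80 ± 0.12 (SE) for the brighter and the dimmer set. Both were among the calls there, with every metastatic tumour above every non-metastatic one.

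HMGN1 differed between the groups by less than the spread within them. Its brighter probe set read 11.96, 12.44, 11.70, 11.93 and 12.14 in MET1 to MET5, against 11.45, 11.92 and 12.17 for the lowest, median and highest non-metastatic tumour. The means were 12.03 ± 0.28 in metastatic and 11.90 ± 0.21 in non-metastatic tumours (SD, n = 5 and 8), a difference of 0.14 ± 0.15 (SE). The other probe set differed by 0.08 ± 0.28 (SE), and by -0.11 without NM2, which at 8.63 was its lowest tumour. Within batch A the differences were 0.06 ± 0.15 and 0.04 ± 0.19 (SE).

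HMGN2, the closest relative of HMGN1, has many processed copies in mammalian genomes. All 6 of its probe sets are annotated together with 2 to 5 other loci, among them pseudogenes in RefSeq and, on 4 of them, the leukocyte actin-bundling gene LCP1, so their signal cannot be given to HMGN2. On the brightest of these the mean was 11.01 ± 0.25 in metastatic and 11.35 ± 0.37 in non-metastatic tumours (SD, n = 5 and 8), a difference of -0.34 ± 0.19 (SE). The 6 differences ran from -0.36 to 0.47, and 5 of them were negative. The positive one came from a set that does not list LCP1, with values of 3.22 to 5.05, all inside the range without target. On that set every metastatic tumour lay above every non-metastatic one, with a gap of 0.04. None of the 6 sets was called by limma, with or without a robust trend, and 1 had an unadjusted p under 0.05.

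**Figure D2:**
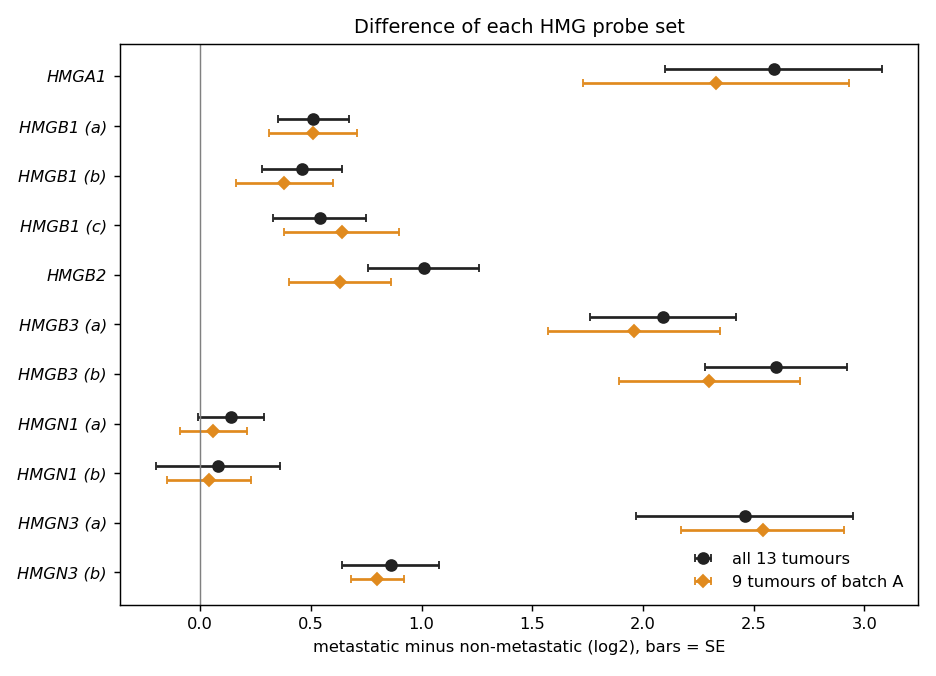
Difference between metastatic and non-metastatic tumours (log2, horizontal axis) for each HMG probe set, over all 13 tumours (circles) and within labelling batch A (diamonds, 9 tumours). Bars are SE. HMGA1, HMGB3 and the brighter HMGN3 set keep differences of 1.96 to 2.54 within batch A, HMGB2 has 0.63 within batch A and 1.01 over all tumours, and HMGN1 stays within 1 SE of 0.

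The labelling batch was examined apart from the outcome, by comparing the non-metastatic tumours of batch A (n = 4) with those of batch B (n = 3) in a limma fit over all probe sets. This comparison uses no metastatic tumour, but it does use tumours that enter the outcome comparison. None of the 11 HMG probe sets was called, against 21.7% of all probe sets, 15.8% higher and 5.85% lower in batch A. Of the 11, 4 had an unadjusted p under 0.05, and 8 were higher in batch A, as were 57.9% of all probe sets. The largest differences were 0.79 ± 0.33 for HMGA1 (SE, limma adjusted p = 0.121) and 0.73 ± 0.22 for HMGB2 (SE, limma adjusted p = 0.0526). The brighter HMGN3 set differed by 0.59 ± 0.32 (SE, limma adjusted p = 0.224). The dimmer HMGB3 set differed by 0.56 ± 0.22 (SE, limma adjusted p = 0.106) and the brighter by 0.54 ± 0.17 (SE, limma adjusted p = 0.0527). Of the 8 non-metastatic values, 5 for HMGA1 and 7 for the brighter HMGB3 set lay inside the range without target, so their batch differences are not exact. The outcome differences within batch A were 2.33 for HMGA1, 1.96 for the brighter HMGB3 set and 0.63 for HMGB2. The part of the labelling batch in the outcome differences over all tumours was not tested.

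Over all 13 tumours 3 of the 11 HMG probe sets had every metastatic tumour above every non-metastatic one, against 1.18% of all probe sets. Within batch A these were 5 of 11, against 4.39%, and without NM2 also 5 of 11, against 3.08%. The 3 were HMGA1 and both HMGB3 sets, and the HMGN3 sets joined them within batch A and without NM2. The family was chosen from these tumours, so the shares are given for scale and nothing is read from them.

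**Figure D3:**
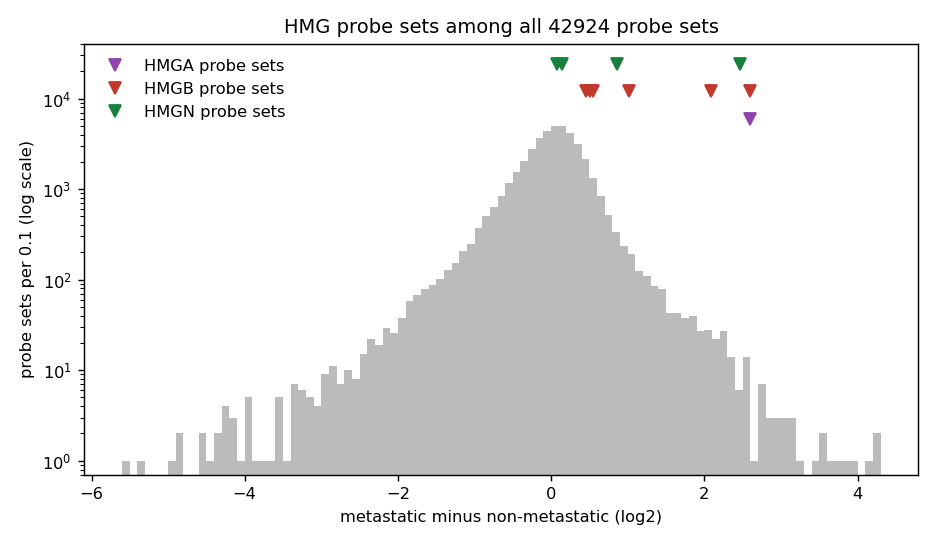
Differences between metastatic and non-metastatic tumours (log2, horizontal axis) of all 42924 probe sets, counted in steps of 0.1 on a log scale (grey), with the HMG probe sets marked by triangles above. Of the 11 marked sets, 4 lie at 2 or more, where 0.331% of all probe sets lie, and the 2 HMGN1 sets lie near the middle.

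The order of the metastatic tumours was the same for HMGB2 and HMGB3 (MET5, MET1, MET2, MET4, MET3) and for HMGB1 and HMGN3 (MET5, MET1, MET4, MET3, MET2), while HMGA1 and HMGN1 each had an order of their own. MET5 was the highest metastatic tumour for 5 of the 6 genes (all but HMGN1), and MET3 was the lowest for 4 (HMGA1, HMGB2, HMGB3 and HMGN1). MET2 was the lowest for the other 2, HMGB1 and HMGN3. HMGB3 at its brighter set was 2.23 above its mean over the 13 tumours in MET5, 1.88 in MET1, 1.45 in MET2, 0.78 in MET4 and 0.10 in MET3. HMGN3 was 2.15 above its mean in MET5, 2.10 in MET1, 1.63 in MET4 and 1.40 in MET3, but only 0.29 in MET2. MET5 was also the tumour with the high skeletal muscle score, and the part of muscle content in its HMG values was not tested.

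Transcripts of cycling cells moved in the same direction. The counts below stand beside 1.56% called higher and 3.34% called lower over all probe sets. Of 16 measured genes of the cycling-cell list 9 rose and none fell, led by CDK1, the kinase of mitotic entry (2.02 ± 0.27, SE, limma adjusted p = 0.00262), the ribonucleotide reductase subunit RRM2 (1.90 ± 0.30, SE, limma adjusted p = 0.00444) and the topoisomerase TOP2A (2.55 ± 0.41, SE, limma adjusted p = 0.00529). Within batch A 4 of the 16 were called higher, where 0.578% of all probe sets were. CDK1 and RRM2 were among the 4 but not TOP2A (2.06, limma adjusted p = 0.0512). The list's mean centred level was 1.13, 1.03, 0.11, 0.46 and 1.22 in MET1 to MET5, against -1.0 to -0.11 in non-metastatic tumours. MET5 and MET1 were the highest and MET3 the lowest metastatic tumours on this list, as they were for HMGB2 and HMGB3. NM2, which was high for HMGN3, had a cycling-cell level of -0.63, inside the range of the other non-metastatic tumours. The part of cycling cells in the HMG differences was not tested.

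**Figure D4:**
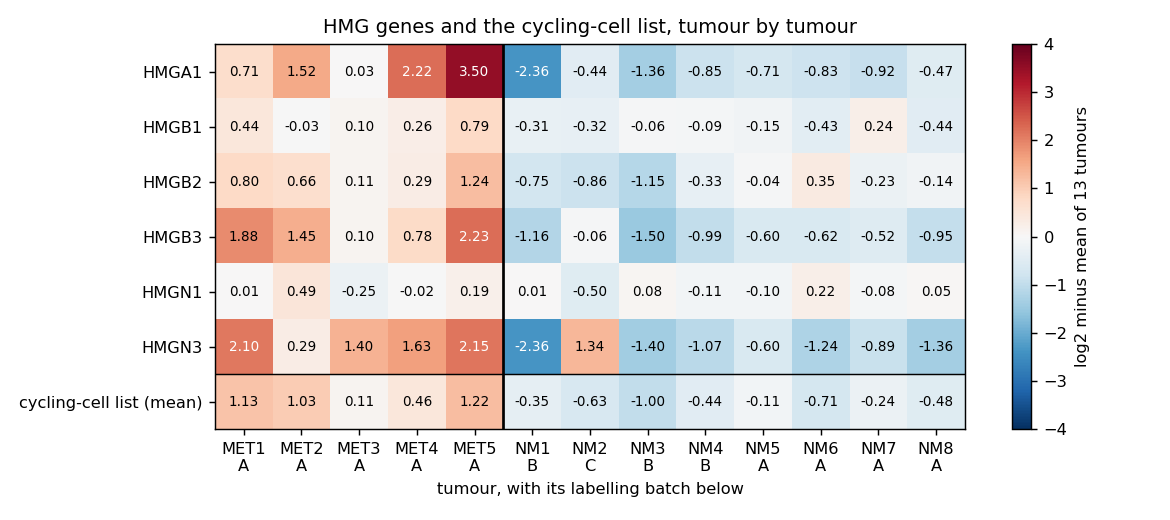
Log2 value minus the mean of the 13 tumours for the 6 measured HMG genes at their brightest probe sets, and the mean of the cycling-cell list (bottom row). Columns are tumours, metastatic on the left, with the labelling batch under each name. MET5 is at or near the top of every row, MET3 is near 0 in HMGA1, HMGB2, HMGB3 and the cycling-cell list, and NM2 stands out as positive in HMGN3.

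The profiles closest to those of the members were found by the root mean square (RMS) difference between centred log2 profiles over the 13 tumours, among 15114 other named genes. For HMGB3 they were the spindle protein gene DLGAP5 (0.36), the histone methyltransferase gene EZH2 (0.38), the spindle gene SPAG5 (0.40), the chromatin remodeller gene HELLS (0.41) and the origin recognition gene ORC1 (0.42). For HMGA1 they were the adhesion receptor gene ADGRL3 (0.72), HMGB3 itself (0.74), the nuclear envelope gene SYNE2 (0.76), the thymidine kinase gene TK1 (0.79) and the replication kinase activator gene DBF4 (0.82). HMGN3 was added after its values had been seen, and its closest profiles were STXBP5 (0.51), ADGRL3 (0.55), SEPTIN6 (0.56), TGFBI (0.66) and GNAS (0.70). HMGB3 ranked 17th among the profiles closest to HMGN3, at 0.78, and HMGB2 703rd, at 1.21. A large difference between the groups enters this measure, so it favours genes with differences of like size.

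Other chromatin genes were counted in lists chosen by what the genes are known for. Of 24 measured linker histones, histone variants and histone chaperones, 5 rose and none fell, where 1.56% of all probe sets were called higher and 3.34% lower. The list median was 0.30 against 0.05 for all probe sets. H2AZ1, the histone variant H2A.Z found at promoters, averaged 11.71 ± 0.52 in metastatic (SD, n = 5) and 10.57 ± 0.36 in non-metastatic tumours (SD, n = 8), a rise of 1.14 ± 0.23 (SE, limma adjusted p = 0.0145). The histone chaperone ASF1A rose by 0.86 ± 0.17 (SE, limma adjusted p = 0.0125) and the H1 and H3 chaperone NASP by 0.82 ± 0.20 (SE, limma adjusted p = 0.032). For these 3 genes every metastatic tumour lay above every non-metastatic one, as for 1.18% of all probe sets. ANP32E, the chaperone that removes H2A.Z, rose by 1.26 ± 0.31 (SE, limma adjusted p = 0.0351). The fifth, the macroH2A variant gene MACROH2A2 (1.83 ± 0.48, SE, limma adjusted p = 0.0423), is named after its value was seen because it completes the count. The centromeric histone CENPA, named after its values were seen, passed at a dimmer probe set (1.02 ± 0.16, SE, limma adjusted p = 0.00509) and not at its brightest (0.29, limma adjusted p = 0.146). None of the 24 passed at the brightest probe set within batch A, where 9 had an unadjusted p under 0.05, all of them higher, and the list median was 0.27. There H2AZ1, ASF1A, NASP and ANP32E differed by 1.05, 0.88, 0.82 and 1.16. Without 1 tumour the call of NASP was lost in 6, that of ANP32E in 10 and that of MACROH2A2 in 11 of 13 fits, and those of H2AZ1 and ASF1A in 0.

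HMG-box and AT-hook factors outside the family gave 1 fall and no rise among 24 measured genes, with a list median of 0.19. Over all probe sets 3.34% were called lower and 1.56% higher, so 1 fall among 24 is near that share and nothing is read from it. BBX, an HMG-box protein, averaged 8.74 ± 0.25 in metastatic (SD, n = 5) and 10.26 ± 0.86 in non-metastatic tumours (SD, n = 8), so it fell by 1.52 ± 0.36 on the log2 scale (SE, limma adjusted p = 0.0303). All 5 BBX probe sets were negative and 3 passed, and within batch A it fell by 1.23 (limma adjusted p = 0.0367). Its call was lost in 8 of the 13 fits without 1 tumour. The chromatin remodelling subunit PBRM1, named for the same reason, joined it within batch A (-0.79, limma adjusted p = 0.00651) after differing by -0.39 over all tumours, with 1 of its other 3 probe sets of the opposite sign and 1 called over all tumours (-0.68, limma adjusted p = 0.0368). HMG20B, a subunit of a histone demethylase complex, differed by -0.81 ± 0.23 (SE, limma adjusted p = 0.0565). The Wnt effector TCF7L2 and the cartilage factor SOX9 differed by -1.18 and 0.34 (limma adjusted p = 0.129 and 0.136).

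The let-7 microRNA restrains HMGA2 and a set of oncofoetal genes in other species, and no probe set was named for HMGA2 itself. Of 18 measured genes of this axis 1 was called, and nothing is read from this count. The share called over all probe sets was 4.90% in either direction and 1.56% higher. The called gene PLAGL1, an imprinted zinc finger gene, rose by 2.25 ± 0.55 (SE, limma adjusted p = 0.0333). It averaged 8.72 ± 0.56 in metastatic and 6.47 ± 1.28 in non-metastatic tumours (SD, n = 5 and 8). Its non-metastatic mean was inside the range without target, its difference within batch A was 2.02 (limma adjusted p = 0.0649), and its call was lost in 9 of the 13 fits without 1 tumour. No other gene of the list passed at its brightest probe set, but 1 of the dimmer sets of DICER1, the enzyme that cuts microRNA precursors, did (1.30 ± 0.23, SE, limma adjusted p = 0.00939), against 0.19 at its brightest (limma adjusted p = 0.497). DICER1 is named after its values were seen. CDC25A, the phosphatase that activates cyclin-dependent kinases, differed by 0.59 (limma adjusted p = 0.0596), the small RNA effector AGO2 by 0.88 (limma adjusted p = 0.0876) and CCND2, a G1 cyclin, by 1.23 (limma adjusted p = 0.121). The list median was 0.19.

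Receptors and partners of extracellular HMGB1 gave no call among 17 measured genes by limma, with or without a robust trend, where 4.90% of all probe sets were called. An unadjusted p under 0.05 was seen for 2 of them, both lower. The list median was -0.12, and its mean centred level ran from -0.13 to -0.02 in metastatic and from -0.07 to 0.18 in non-metastatic tumours. CXCL12, a chemokine that forms a complex with HMGB1, differed by -1.50 ± 0.51 (SE, limma adjusted p = 0.10). The adaptor MYD88, the autophagy protein BECN1 and the receptor TLR2 differed by -0.39, -0.33 and 0.37, with limma adjusted p of 0.145, 0.28 and 0.242.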

How the data were processed

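The authors deposited 1 table of processed values, read here as log2 intensities because they run from 0 to 14.33. The sources used here name neither software nor normalization, and the values were used as deposited. Per the labels' protocols, RNA was labelled by 1 cycle of 3′ in vitro transcription. Of 43035 probe sets 111 Affymetrix controls were left out. Symbols came from the platform annotation (1 symbol for 29264 probe sets, several for 439). A gene with several probe sets is described first by its brightest, by mean over the 13 samples.

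The group difference was fitted with limma 3.58.1 for all probe sets together (R 4.3.3, two-sided, group as the only term). The fit was also run on simulated data with independent noise and no batches, which does not bear on the labelling batches here. A list's mean centred level is the mean over its genes of log2 value minus the gene's mean. Batches were read from 36 poly-A spike-in probe sets (mean of the 3′ sets under 6 for batch B, 3′ minus 5′ over 2 for batch C). Plots used Python 3.11.15 and matplotlib 3.10.9. The members and lists were chosen with earlier results of these data known. The text names all members, up to 4 genes of smallest p in each chromatin list, 3 of the cycling-cell list and the 5 closest profiles of HMGA1 and HMGB3, and genes needed to complete a count. Alternatives covered scaling between arrays, a filter on dim probe sets, the batches, ACTB 3′ excess, variance model, array weights and leaving out each tumour. The comparison of batches A and B and the fits of batch A without 1 tumour were added after seeing the data.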

Additional observations from a re-analysis of the deposited data

Results flagged for a closer look

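Of 22 groups of values (11 HMG probe sets in each outcome group), 3 had a tumour set apart from the others by more than Dixon's test allows, where chance alone flags about 1 in 20. On 1 of the dimmer HMGB1 probe sets MET5 read 12.06, and the other metastatic tumours lay between 11.21 and 11.27. On both HMGN1 probe sets NM2 was the low tumour. It read 11.45 on the brighter set, with the next tumour at 11.84, and 8.63 on the other, with the next at 9.81. NM2 is the single tumour of labelling batch C and had the highest ACTB 3′ excess, 3.14. Its spike-in sets also had the highest 3′ minus 5′ value, 3.54, against 0.30 to 0.96 in the other samples. The parts of RNA quality and of labelling in the HMGN1 values of NM2 were not tested.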

How the results depend on the processing

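The count of 2104 called probe sets became 1192 within batch A, 207 without batch B, 1367 with ACTB 3′ excess as a covariate, 733 with the replicate number as a block and 4011 with array weights. Without 1 tumour it ran from 856 (MET1) to 4478 (NM2), a shift of over 1.5 times also without MET3, MET5, NM1, NM3, NM4 or NM8, and within batch A from 259 (NM8) to 1207. The 6 called HMG probe sets became 1 without batch B and 4 to 6 without 1 tumour. Within batch A 4 were called, and 1 (without NM8) to 5 (without MET3) without 1 of its tumours. The median difference over all 11 HMG probe sets, called or not, was 0.86 and ran from 0.48 to 0.95 over all settings. No HMG gene changed sign at its brightest probe set except HMGN1, which without 1 tumour ran from -0.04 (within batch A without MET2) to 0.22. The 7 called genes of the 4 chromatin lists became 2 within batch A, 0 without batch B, 4 with the ACTB covariate, 0 with the replicate block, 15 with array weights and 10 when any probe set of a gene counted (CENPA, DICER1 and PBRM1 added), and the 2 counts of 0 had 16 and 25 genes at an unadjusted p under 0.05. Without 1 tumour this count ran from 2 (MET1, MET5, NM3, NM4 or NM8) to 12 (NM2), with 3 or 4 without MET2, MET3, NM1 or NM6, and within batch A from 1 to 4. Without 1 tumour TLR2 ran from -0.04 (batch A without NM7) to 0.46, and BECN1 from -0.45 to 0.00 (batch A without MET2). Replicate numbers do not pair the tumours: residuals of same-numbered tumours correlated at -0.00857 to 0.0782, and 4 HMG probe sets were called with that block. The cause of these shifts was not tested. The number of arrays and the signal over background limit precision.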
